A study of Oryctolagus cuniculus with 4 samples.

Results

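The transcripts described here are the nuclear genes most abundant in rabbit tendon stem/progenitor cells (TSPCs) grown without platelet-rich plasma (PRP). The genes were chosen by their measured level in the libraries from cells without PRP: a mean of at least 1000 CPM (the count per 1000000 counts of the library), fewer than 50 distinct exon starts, and no position on the mitochondrial sequence. Of 29587 listed genes, 101 met this rule. The cells came from New Zealand White rabbits, and the study compared medium with 10% (v/v) PRP, a plasma fraction rich in platelets and their growth factors, against medium without it (noPRP), with 2 messenger RNA libraries in each group. The labels give the 2 groups no other difference, and no animal age, passage or time in culture. They also do not say if the replicates are separate animals, separate cultures or repeat libraries of 1 culture, so p-values measure only the spread between libraries, which may be technical. In bulk RNA, fewer cells of a type and less RNA per cell cannot be told apart.

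In any cell a small number of genes supplies a large part of the messenger RNA, while most genes are present at low copy. In cultured fibroblast-like cells this abundant fraction is known to be filled mainly by genes for extracellular matrix, the actin and intermediate filament cytoskeleton, protein synthesis and glycolysis. Tendon cells are known above all for making fibrillar collagen and small proteoglycans. The deposited tables give Ensembl identifiers and exon positions in the OryCun2.0 assembly but no gene names, and the RefSeq gene table used here matched 0 of the identifiers. Which of the 101 genes belongs to which of these classes was therefore not determined, the tendon identity of the cells could not be checked against markers, and each gene is given by its position.

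The libraries held 20100175 and 20947284 counts without PRP and 24064713 and 23829027 with it, so 1000 CPM stood for 20100 to 24065 reads and counting error is small beside the difference between libraries. PRP replicate 2 had a count for 17499 genes, against 15796 to 15981 in the other libraries. Fold changes below come from edgeR's quasi-likelihood fit over all 12707 genes, with TMM scaling of the libraries, and are given as the log2 of PRP over noPRP (log2 change).

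The 101 genes made up a smaller part of the counts in the PRP libraries than in the noPRP libraries. Their summed share was 31.5% in noPRP replicate 1 (95% Wilson interval 31.47 to 31.51) and 29.0% in noPRP replicate 2 (28.97 to 29.01). In the PRP libraries it was 22.9% (22.84 to 22.87) and 26.3% (26.31 to 26.35). Both PRP libraries thus lay below both noPRP libraries. These intervals cover counting error only. Means of the groups stood at 30.2% ± 1.8 without PRP and 24.6% ± 2.5 with it (SD over 2 libraries), a difference of −5.65 percentage points. The noPRP share is high by the choice of the genes, so this difference is a description. An exact permutation test of 2 against 2 libraries gave p = 0.333, the smallest value it can give, and so cannot decide the question. The direction of the difference depends on the threshold: for the 261 genes at 500 CPM or more it was 1.72 percentage points.

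Choosing the genes in 1 noPRP library leaves the other noPRP library unused by the rule. Genes at 1000 CPM in noPRP replicate 1 numbered 112; they held 33.6% of that library's counts and 27.1% of those of noPRP replicate 2, which had no part in choosing them. The same 112 genes held 22.0% and 27.8% in the PRP libraries, so the unused noPRP library lay between the PRP libraries. Genes at 1000 CPM in noPRP replicate 2 numbered 93. They held 29.4% there, 26.5% in the unused noPRP replicate 1, and 18.6% and 19.9% in the PRP libraries, here both below the unused noPRP library. Just 63 genes reached 1000 CPM in both noPRP libraries, which is 56.25% of the former list and 67.7% of the latter. Of the 101 genes, 24 reached the level in noPRP replicate 1 alone and 14 in noPRP replicate 2 alone.

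**Figure D1:**
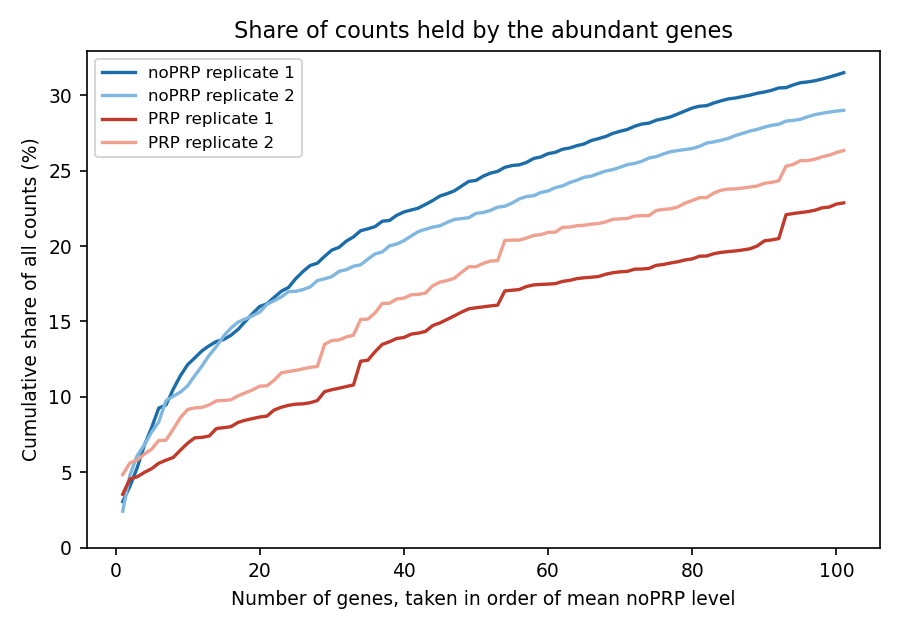
The share of all counts (%) is summed over the 101 genes, taken in order of their mean noPRP level, with 1 line per library. The noPRP lines end at 31.5% and 29.0% and the PRP lines at 22.9% and 26.3%; steps in the PRP lines mark single genes that are far more abundant with PRP.

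Counts were concentrated in few genes. The 10 highest accounted for 12.1% and 10.7% of all counts without PRP and for 6.93% and 9.17% with it. Within the summed counts of the 101 genes, 17 and 15 genes made up at least 50% in the noPRP libraries and 11 in each PRP library. The highest gene alone accounted for 9.73% and 8.38% of these summed counts without PRP, and for 15.5% and 18.4% with it.

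The most abundant gene lay on the unplaced sequence GL018717 at positions 2710944 to 2796357, with 13 exon starts and 2349 exonic bases. Without PRP its libraries stood at 30627 and 24291 CPM, with PRP at 35477 and 48482 CPM. All 4 libraries placed it above 2% of the counts, and both PRP libraries were above both noPRP libraries. Its mean was 27459 ± 4480 CPM without PRP and 41979 ± 9196 CPM with it (SD over 2 libraries), a log2 change of 0.89 in edgeR (SE 0.89, adjusted p = 0.646). Of its exonic bases, 647 are also exonic in another annotated gene, and the counting program's defaults leave out reads that fall in both genes.

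The second gene, on chromosome 7 at 156703390 to 156771395, had 45 exon starts over 8599 bases. It was at 10181 and 23949 CPM without PRP and 10182 and 7788 CPM with it. Here noPRP replicate 2 stood apart, and noPRP replicate 1 was level with PRP replicate 1.

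The third, on chromosome 18 at 36853674 to 36870923, was at 12168 and 12770 CPM without PRP and at 1418 and 1860 CPM with it. The libraries of each group were close together and the groups far apart, with a log2 change of −2.66 in edgeR (SE 0.88, adjusted p = 0.19).

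The next 3 genes were all highest in noPRP replicate 1. On chromosome 14 the gene at 106550952 to 106606720 was at 14989 and 7260 CPM without PRP and at 2918 and 3988 CPM with it. That on chromosome 16 at 44091745 to 44099432 was at 11600 and 8351 CPM against 2437 and 3273 CPM. The chromosome 15 gene at 10007158 to 10014838, with only 3 exon starts, was at 13062 and 6790 CPM against 3617 and 5763 CPM. For all 3, both PRP libraries lay below both noPRP libraries, with log2 changes of −1.41, −1.53 and −0.80 and adjusted p-values in edgeR of 0.501, 0.46 and 0.671.

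The other 4 of the 10 highest genes had overlapping groups. A gene on chromosome 17 at 32568969 to 32583143 was at 2016 and 14088 CPM without PRP and at 2026 and 110 CPM with it, so noPRP replicate 1 and PRP replicate 1 were alike. Another, on chromosome 3 at 71974430 to 71981275, was at 10425 and 2943 CPM against 1788 and 7348 CPM. The chromosome 13 gene at 141107076 to 141127785 was at 8970 and 2754 CPM against 4853 and 7635 CPM. The gene on GL018878 at 124762 to 158146 was at 7312 and 4166 CPM against 4592 and 5428 CPM. For the latter 2 both PRP libraries lay between the noPRP libraries, and for the chromosome 3 gene the PRP libraries straddled the lower noPRP library. Log2 changes of the 4 genes were −2.78, −0.22, 0.37 and 0.07.

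**Figure D2:**
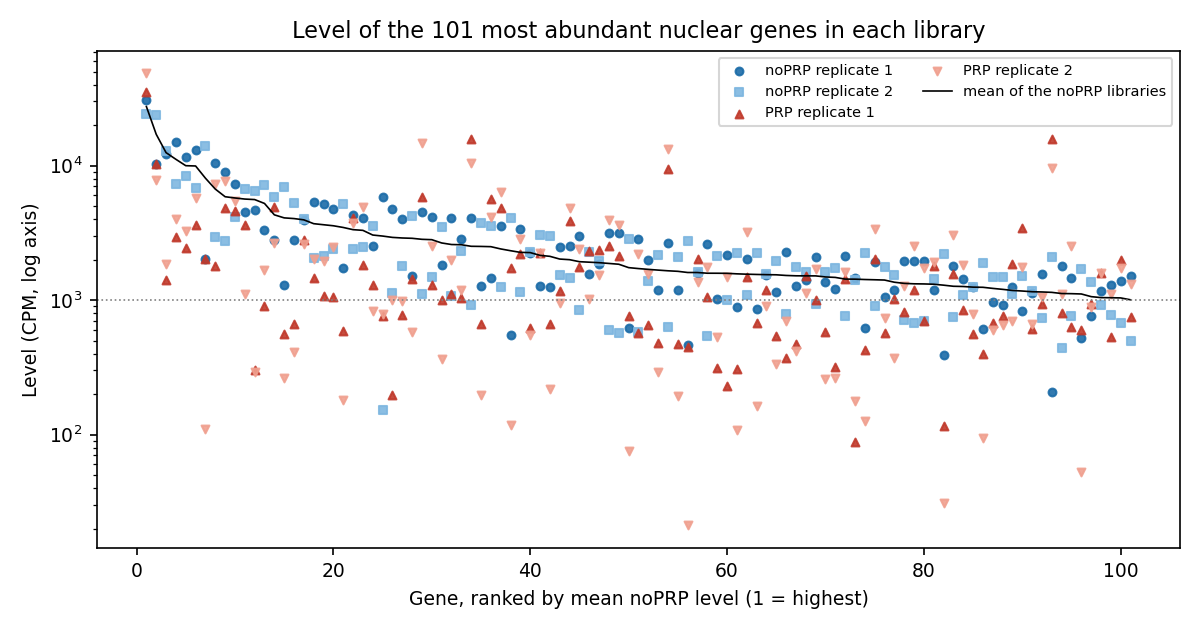
Each of the 101 genes is placed by its rank in mean noPRP level (1 is the highest), with its level in CPM on a log axis in the 4 libraries; the black line is the noPRP mean and the dotted line the 1000 CPM threshold. PRP levels spread from 21.2 to 48482 CPM, while noPRP levels run from 151 to 30627 CPM.

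Around the threshold the list has no natural edge. The lowest genes kept were on GL019063 at 7462 to 84222 (mean 1004 CPM), on chromosome 18 at 15448010 to 15520053 (1037 CPM) and on chromosome 13 at 98050848 to 98202052 (1040 CPM). The highest genes left out had means of 995, 989 and 977 CPM and lay on GL018786, chromosome 1 and chromosome 12. Also left out by the rule were 8 mitochondrial genes and 11 genes with 50 or more exon starts that reached 1000 CPM. The latter 11 accounted for 2.94% and 4.97% of counts without PRP and 2.69% and 1.14% with it.

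The abundant genes were mostly of ordinary size. Their exon length ran from 358 to 14427 bases with a median of 2547, beside a median of 2006 over all tested genes. Exon starts numbered 1 to 48 with a median of 13, against 9 over all tested genes. Short genes were few: 8 of the 101 (7.92%) had under 1000 exonic bases, against 18.8% of tested genes, while 15 (14.9%) had at least 5000, against 8.31%. A single gene had only 1 exon (0.99%, against 5.91% of tested genes). Because CPM is not corrected for length, a long gene reaches 1000 CPM at fewer molecules than a short one. Ranked instead by level per kilobase of exon, 101 genes of the same class had a median length of 1208 bases and 7 exon starts. Of these, 44 were under 1000 bases and 60 were on both lists.

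**Figure D3:**
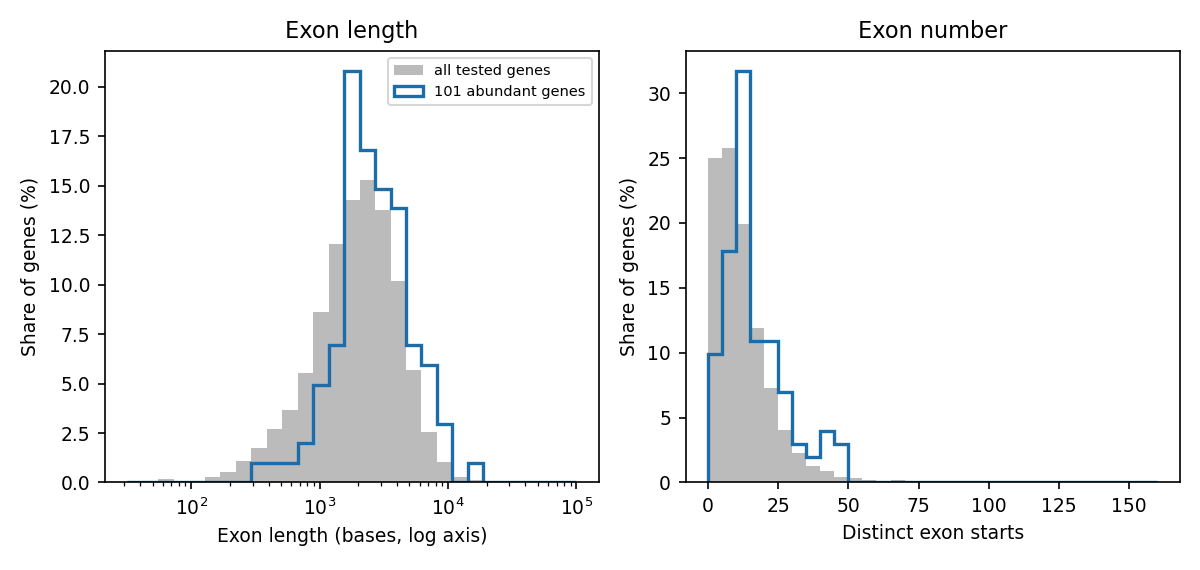
Exon length in bases (log axis, left) and the number of distinct exon starts (right) are shown as shares of genes, with tested genes in grey and the 101 abundant genes in blue. The abundant genes have medians of 2547 bases and 13 starts, and few lie under 1000 bases.

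Per kilobase of exon, the levels in noPRP ran from 124 CPM per kb for the gene on GL019063 at 7462 to 84222 to 11690 CPM per kb for the GL018717 gene at 2710944. Next came the genes on chromosome 18 at 36853674 (7352 CPM per kb), chromosome 16 at 44091745 (6690) and chromosome 15 at 10007158 (5608). Within the 101 genes, the first 4 places per kilobase were thus taken by genes that also ranked among the 10 highest in CPM, while a gene of the class at 500 to 1000 CPM reached 6748 CPM per kb. The fifth of the 101 was a short gene on GL019028 at 86633 to 87840, with 656 exonic bases, at 4311 CPM per kb. With PRP this gene was at 5876 and 14678 CPM, against 4540 and 1116 CPM without it.

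Of the 5 longest genes, 4 had their lowest level in PRP replicate 2, the chromosome 7 gene at 156703390 among them. The longest, on chromosome 2 at 64099543 to 64215301 with 14427 exonic bases, was at 1736 and 5192 CPM without PRP and at 583 and 179 CPM with it. The genes on GL018816 at 184872 (8721 bases) and on chromosome 9 at 24813855 (8399 bases) were likewise lowest in PRP replicate 2, at 370 and 260 CPM. The long gene on GL019063 (8073 bases) was at 1513 and 495 CPM against 742 and 1315 CPM, with overlapping groups.

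All 5 shortest genes were lower in PRP replicate 1 than in PRP replicate 2, and higher in noPRP replicate 1 than in noPRP replicate 2. The shortest, on chromosome 4 at 39676751 to 39677753 with 358 exonic bases, was at 1468 and 762 CPM without PRP and at 631 and 2540 CPM with it. On GL018793 at 519039 to 520666 (447 bases) the levels were 2023 and 1089 CPM against 1476 and 3231 CPM. On chromosome 1 at 104462664 to 104465787 (718 bases) they were 4717 and 1128 CPM against 195 and 996 CPM. On chromosome 17 at 8084939 to 8089653 (829 bases) they were 1963 and 677 CPM against 1193 and 2519 CPM. The remaining short gene is the one on GL019028 already given.

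The genes lay on most chromosomes, in uneven numbers. Chromosomes 4 and 17 held 10 each, of 499 and 465 tested genes, while chromosomes 9 and 19 held 1 each, of 476 and 567. On unplaced sequences lay 23 (22.8%), against 27.1% of tested genes. The unevenness was not tested. Only 12 lay within 500 kb of another of the 101, in 5 neighbourhoods. The fullest was on chromosome 4, where genes starting at 39313679, 39676751, 39721657 and 40143012 were at mean noPRP levels of 3296, 1115, 1690 and 1148 CPM. Each of these 4 had overlapping groups, with log2 changes of 0.34, 0.84, −0.30 and 0.06. A second pair on the same chromosome, starting at 70315437 and 70357924, was lower in both PRP libraries than in either noPRP library. The former was at 1290 and 6874 CPM against 557 and 263 CPM, and the latter at 1025 and 2139 CPM against 314 and 531 CPM.

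The other 3 neighbourhoods were pairs. On chromosome 8, the genes starting at 32580475 and 32890155 had log2 changes of 0.39 and −0.07. On chromosome 10, those starting at 44667395 and 45134871 had log2 changes of 0.12 and 0.38. On GL018993 the genes at 67066 to 142648 and 142538 to 180751 overlap and share 95 exonic bases, where reads would be left out. Their log2 changes were 0.36 and −0.52. The latter gene was lower in both PRP libraries, at 914 and 1487 CPM without PRP against 759 and 656 CPM with it. In all, 12 of the 101 genes share exonic bases with another annotated gene, at most 1355 bases.

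Libraries of the same group often disagreed on these genes. The noPRP libraries differed by a median of 2.13-fold per gene and lay within 2-fold for 46 of 101 genes (45.5%). Over the 12367 tested genes with a count in every library, the median was 2.002-fold and 49.96% lay within 2-fold. The PRP libraries differed by a median of 1.66-fold and lay within 2-fold for 64 genes (63.4%, against 56.4%). As log2 ratios the medians of the 101 genes were 1.09 for noPRP and 0.73 for PRP. With CPM on TMM library sizes they were 1.09 and 0.89. Gaps over 4-fold were seen for 17 genes between the noPRP libraries and for 11 between the PRP libraries. The rule itself favours wide noPRP gaps, since 1 library can carry the mean past the threshold.

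The widest noPRP gap was that of the only gene with 1 exon, on GL019111 at 161377 to 166471. It was at 5829 CPM in noPRP replicate 1 and 151 CPM in noPRP replicate 2, a 38.6-fold gap, and at 759 and 793 CPM in the PRP libraries. Its place on the list rested on a single library. The gene on chromosome 1 at 113716113 to 113724650 was at 207 and 2073 CPM without PRP. Genes on chromosome 20 at 9364936 to 9389389 and on chromosome 12 at 110525042 to 110526365 shared the pattern of the chromosome 17 gene at 32568969. The chromosome 20 gene was at 548 and 4105 CPM without PRP and at 1720 and 117 CPM with it. The chromosome 12 gene was at 465 and 2739 CPM against 449 and 21.2 CPM, which gave the widest PRP gap, 21.2-fold. The PRP gaps of the chromosome 17 and 20 genes followed, at 18.5-fold and 14.7-fold. After them came the genes on GL018706 at 4281694 and chromosome 16 at 74224514. The former was at 520 and 1699 CPM without PRP and at 603 and 53.0 CPM with it, and the latter at 615 and 2867 CPM against 755 and 75.5 CPM. All 4 of these genes, like that on chromosome 17, were highest in noPRP replicate 2 and lowest in PRP replicate 2.

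The gaps in the 2 groups ran in opposite directions. Of the 101 genes, 46 were higher in noPRP replicate 1 and in PRP replicate 2, and 42 were higher in noPRP replicate 2 and in PRP replicate 1. Only 13 had the same replicate number higher in both groups. This is 87.1% in opposite directions, against 73.8% of the 12367 tested genes. Across the 101 genes the log2 gaps had a Spearman rho of −0.76, against −0.66 over the tested genes. The gaps share no library, but genes are not independent replicates and no p-value is given. noPRP replicate 2 was the highest library and PRP replicate 2 the lowest for 35 genes, the most frequent order; noPRP replicate 1 was highest and PRP replicate 1 lowest for 18.

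Exon length moved with these gaps. The 47 genes higher in PRP replicate 1 had a median exon length of 3395 bases and 18 exon starts, and the 54 higher in PRP replicate 2 had 1862 bases and 10 starts. All 8 genes under 1000 bases were among the latter. In the noPRP libraries, the 51 genes higher in replicate 1 had a median of 2170 bases and the 50 higher in replicate 2 a median of 2854.5. Spearman's rho of the gap with exon length was 0.36 for PRP and −0.18 for noPRP over the 101 genes, and 0.23 and −0.15 over the tested genes. The part of exon length in the gaps was not tested.

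**Figure D4:**
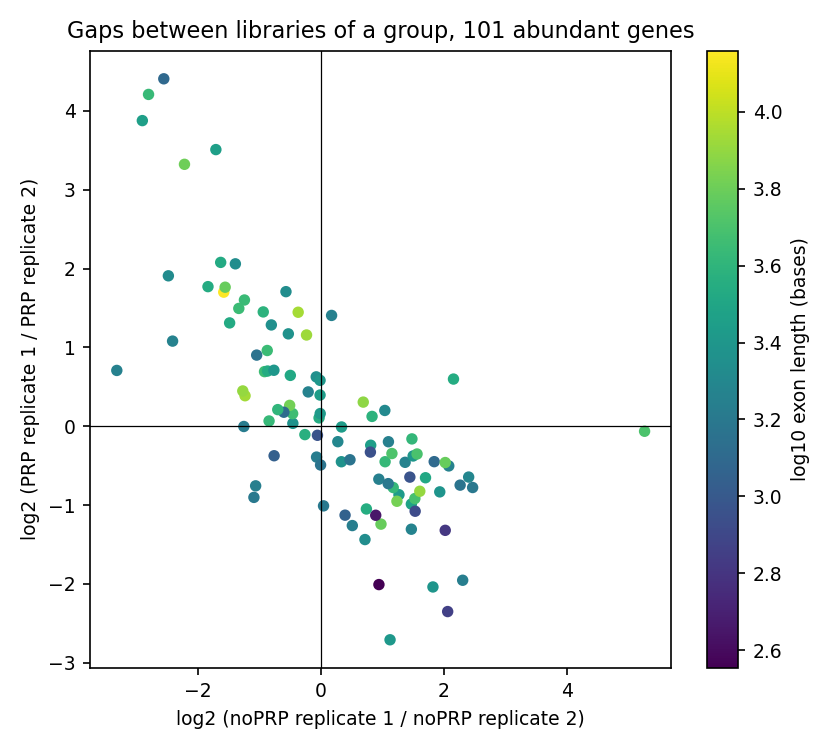
Each point is 1 of the 101 genes, with the log2 ratio of the noPRP libraries on the x axis and that of the PRP libraries on the y axis; colour gives log10 exon length. Most points (88 genes) lie in the upper left and the lower right, and the shortest genes lie at the lower right.

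The comparison of PRP with noPRP asks which transcripts differ between cells grown with and without PRP. Of the 101 genes, 0 passed an adjusted p of 0.05 in edgeR, where 0.858% of all tested genes passed. At an unadjusted p under 0.05 there were 21 (13.3% of tested genes): 4 higher in PRP (5.31%) and 17 lower (8.01%). DESeq2 called 11 of the 101 genes, 3 higher and 8 lower, where it called 5.73% of tested genes, and limma-voom called 1, against 1.08%. Since the noPRP values chose the genes, these counts and those below describe the list and are not a test of it. The genes had a median log2 change of −0.52, with 42 positive and 59 negative, beside a median of 0.04 over all tested genes.

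This count depended on the libraries used. Without noPRP replicate 1 there were 7 calls among the 101 genes, 6 of them lower in PRP, where 4.24% of tested genes passed. There was 1 without noPRP replicate 2 (0.857% of tested genes), 4 without PRP replicate 1 (1.24%) and 1 without PRP replicate 2 (0.978%). The labels do not say whether replicate numbers pair libraries across groups, and the fit has no term for them. With 1 library left in a group, that library is assumed to vary like those of the other group. Scaling by library totals in place of TMM moved the median of all tested genes from 0.04 to −0.21 and that of the 101 genes to −0.76. The distance between the medians was −0.55 with TMM and −0.56 with library totals. A change of scaling moves all genes by nearly the same amount, so this distance could hardly change and is no check of the lower median.

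By the CPM of single libraries, 58 genes had groups that did not overlap (47.7% of tested genes). Both PRP libraries were below both noPRP libraries for 45 (29.4% of tested genes) and above them for 13 (18.3%). These counts depend on the scaling, here by library totals. With CPM on TMM library sizes 54 genes did not overlap, 38 lower and 16 higher, and DESeq2's size factors gave the same counts. The shares of tested genes on those scales are not given here. The 45 lower genes summed to 13.3% and 14.7% of counts without PRP and to 4.26% and 4.07% with it. The 13 higher genes summed to 5.62% and 4.07% without PRP and to 10.7% and 12.2% with it. The direction of both differences is fixed, since the values of both groups were used to split the genes. The remaining 43 genes, with overlapping groups, summed to 12.5% and 10.2% against 7.85% and 10.0%. Among the 160 genes of the next lower class, at 500 to 1000 CPM without PRP, 42.5% were lower and apart and 11.9% higher and apart. This class was chosen by its noPRP level too.

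A fold change of 2 or more downward was fitted for 37 genes (24.0% of tested genes), of which 32 had groups that did not overlap. The same size upward was fitted for 12 (21.8%), of which 10 did not overlap. A log2 change under 0.5 in size, taken here as level, was fitted for 31 (27.9%), and 29 of these had overlapping groups. The remaining 21 lay in between. Fold change and overlap come from the same values and are related for any gene. How often the groups overlap among tested genes of each class is not given here, so these fractions are not particular to the list.

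**Figure D5:**
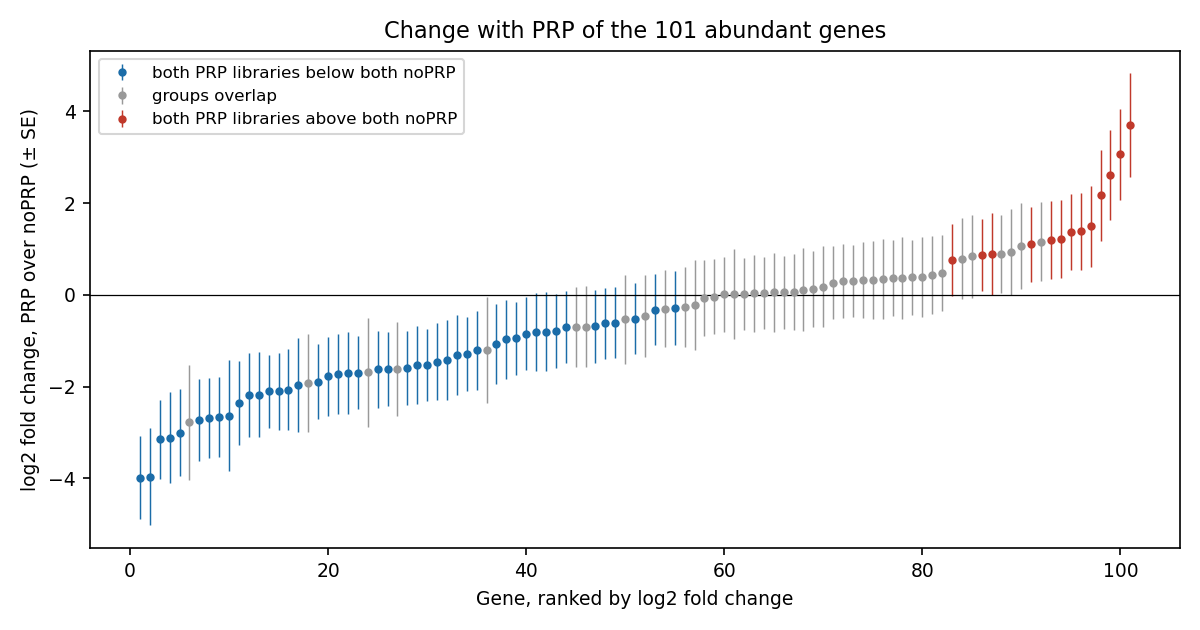
The 101 genes are ranked by log2 change, PRP over noPRP, from the edgeR fit, with bars of ± 1 SE; blue, grey and red mark genes whose PRP libraries both lie below, overlap with, or both lie above the noPRP libraries. Values run from −3.99 to 3.70, and none passed an adjusted p of 0.05.

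The lowest log2 change was that of ENSOCUG00000003313, on chromosome 3 at 6330229 to 6342271 with 11 exon starts. It was at 4710 and 6460 CPM without PRP and at 300 and 292 CPM with it. The PRP libraries were nearly equal and more than 10-fold under either noPRP library. In edgeR the log2 change was −3.99 (SE 0.90, adjusted p = 0.0603), the smallest adjusted p of the list. The gene passed 0.05 in 5 of 13 fits under the planned settings, whose adjusted p-values ran from 4.52e-06 (DESeq2) to 0.342.

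ENSOCUG00000012378, on chromosome 7 at 165090307 to 165095930 with 3 exon starts, had nearly the same log2 change in edgeR, −3.96 (SE 1.05, adjusted p = 0.0976). Its libraries were at 391 and 2188 CPM without PRP and at 115 and 30.8 CPM with it. It reached 1000 CPM only in noPRP replicate 2, and without that library the log2 change was −2.24 in edgeR (adjusted p = 0.494, in a range of 0.00108 to 0.665 over the 13 planned fits).

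Other genes at the lower end kept both noPRP libraries well above both PRP libraries. For that on chromosome 4 at 55834417 to 55854515, levels of 1451 and 1408 CPM stood against 87.4 and 176 CPM, with a log2 change of −3.15 (SE 0.86). For that on chromosome 14 at 39741662 to 39841265 they were 889 and 2243 CPM against 306 and 109 CPM. For that on chromosome 7 at 13255548 to 13449107 they were 2793 and 5274 CPM against 666 and 412 CPM. Together with the genes on chromosomes 2 (64099543), 4 (70315437) and 18 (36853674) already given, these had log2 changes of −3.15 to −2.66 and adjusted p-values in edgeR of 0.106 to 0.19. Without noPRP replicate 2, the chromosome 4 gene at 70315437 was at −1.45 and the chromosome 2 gene at −2.001. The 2 others among the 10 lowest were the genes on chromosomes 17 and 12 with the widest PRP gaps; their log2 changes of −2.78 and −2.64 became −0.78 and −0.85 without noPRP replicate 2, and −5.82 and −5.86 without PRP replicate 1.

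The highest log2 change was that of ENSOCUG00000029337, the chromosome 1 gene at 113716113 with 10 exon starts. From 207 and 2073 CPM without PRP it stood at 15771 and 9657 CPM with it, among the most abundant transcripts of the PRP libraries. In edgeR the log2 change was 3.70 (SE 1.13, adjusted p = 0.154). It was 6.16 without noPRP replicate 2 and 2.85 without noPRP replicate 1, and adjusted p-values ran from 0.000525 to 0.339 over the 13 planned fits.

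ENSOCUG00000005985, on chromosome 2 at 42058802 to 42075842, was at 2669 and 630 CPM without PRP and at 9432 and 13375 CPM with it. Its log2 change in edgeR was 3.07 (SE 0.99, adjusted p = 0.179). A gene on chromosome 7 at 158055348 to 158124797 was at 4101 and 918 CPM against 15754 and 10407 CPM, a log2 change of 2.61 in edgeR (SE 0.97, adjusted p = 0.259). The short gene on GL019028 followed at 2.17 (SE 0.99, adjusted p in edgeR 0.366). The values for these 3 genes differed with the library left out. Without noPRP replicate 1 they were 4.46, 4.07 and 3.51, and without noPRP replicate 2 they were 2.36, 1.90 and 1.47; the GL019028 gene was at 1.20 without PRP replicate 2. In all 4 of the highest genes each PRP library exceeded each noPRP library, and noPRP replicates differed by over 4-fold.

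The next 6 genes upward had log2 changes of 1.15 to 1.49. On GL018816 at 868363 to 896614 the levels were 3545 and 1252 CPM against 4860 and 6314 CPM. On the X chromosome at 32653959 to 32658564 they were 2539 and 1452 CPM against 3841 and 4823 CPM. On chromosome 2 at 139862296 to 139942419 they were 824 and 1509 CPM against 3429 and 1762 CPM. For these, and for the genes on chromosome 17 at 5896994 and GL018699 at 12582949, the groups did not overlap. For the gene on chromosome 8 at 111654339, at 1778 and 753 CPM against 1564 and 3026 CPM, they did.

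The most even genes between groups were not the most even between libraries. The 5 log2 changes nearest 0 were 0.01 to 0.04 with TMM scaling and −0.31 to −0.18 with library totals alone. Their SEs with TMM scaling were 0.78 to 0.97, and each of these genes had overlapping groups. The gene on GL018699 at 2138850 to 2143633 was at 1565 and 2258 CPM against 2312 and 1026 CPM. The gene on GL018751 at 334755 to 370930 was at 2851 and 575 CPM against 567 and 2196 CPM, so near-equal group means stood beside a 4.95-fold gap within noPRP. A gene on chromosome 14 at 42965454 to 43043654 was at 759 and 1361 CPM against 930 and 889 CPM. Another, on chromosome 12 at 60379957 to 60382247, was at 2808 and 5793 CPM against 4957 and 2652 CPM. The last, on chromosome 17 at 28566492 to 28592982, was at 1404 and 1620 CPM against 1521 and 1125 CPM, the narrowest range of the 5.

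Libraries agreed within 1.25-fold in both groups for 5 of the 101 genes (4.95%, against 4.44% of the 12367 tested genes with a count in every library), a limit chosen after the values were seen. On chromosome 4, the gene at 83093902 to 83110802 was at 3906 and 3986 CPM against 2817 and 2618 CPM, and the gene at 88310434 to 88361387 at 2823 and 2331 CPM against 1036 and 1187 CPM. On chromosome 17, the gene at 9209147 to 9235672 was at 2244 and 2261 CPM against 618 and 553 CPM, and the gene at 27607330 to 27614076 at 1130 and 1175 CPM against 607 and 658 CPM. These 4 were lower in both PRP libraries. The fifth, on chromosome 11 at 31974086 to 32013982, was higher in both, at 1193 and 1428 CPM against 1784 and 1921 CPM. All 5 were found with CPM on library totals. The TMM factors of the PRP libraries were 0.9996 and 0.842, so the PRP gaps, and which genes meet the limit, can differ on that scale.

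Many genes stayed abundant with PRP. By the same rule on the PRP libraries, 124 genes had a mean of at least 1000 CPM, of which 61 were among the 101. This is 60.4% of the noPRP list and 49.2% of the PRP list. The 61 shared genes, which the noPRP and PRP values together chose, summed to 22.6% ± 3.7 of counts without PRP and 22.5% ± 2.8 with it (SD over 2 libraries). The 63 genes abundant with PRP alone summed to 3.12% ± 0.98 and 19.0% ± 3.4. This rise is fixed by their choice, since they had to reach 1000 CPM with PRP and stay below it without. Of the 101 genes, 32 were at 1000 CPM or more in each of the 4 libraries and 95 at 100 CPM or more. The other 6 were each under 100 CPM in a PRP library, and the lowest mean PRP level was 73.1 CPM.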

How the data were processed

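The deposited values were whole-number read counts per gene for 4 libraries; a table of the whole series with the same values was not used. Per the submitters' processing notes, STAR 2.7.2a, featureCounts 1.6.5 and OryCun2.0 were used. Per the file headers, reads in exons were counted per gene in Ensembl release 98 with no strand or pair option. Reads from a gene and its antisense partner cannot be told apart.

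CPM used the library total. R 4.3.3 with edgeR 4.0.16 (filterByExpr, TMM factors of 0.842 to 1.09, quasi-likelihood test, Benjamini-Hochberg adjustment) was fitted with group as the only term. The fit had 2 residual degrees of freedom and a common biological coefficient of variation of 0.605. It was tested on simulated data. DESeq2 1.42.0 and limma 3.58.1 (voom) were alternatives, as were other scalings, filters, thresholds, the replicate number as a block, and leaving out each library. Exon length and distinct starts came from the files' exon positions. Genes were named by fixed counts: the highest levels, longest, shortest, widest gaps, extreme and smallest log2 changes, nearest the threshold, highest per kilobase, and neighbours within 500 kb. The members, lists and rules were chosen with earlier results of these data known. With no gene names, the marker and pathway lists could not be applied.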

Additional observations from a re-analysis of the deposited data

How the results depend on the processing

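Over all tested genes, 109 passed in edgeR. With other settings this was 60 with upper-quartile factors, 565 without a filter on low counts, 728 in DESeq2, and 114 to 571 when 1 library was left out. Of the 101 abundant genes, 0 passed in edgeR, where 109 of 12707 tested genes passed. With library totals alone 1 passed (102 of 12707 tested genes), as did 1 in limma-voom (137 of 12707). There were 11 without the filter (565 of 19956 tested genes) and 11 in DESeq2 (728 of 12707). With a threshold of 500 CPM, 2 of 261 genes passed (0.858% of tested genes), and the difference in summed share turned from −5.65 to 1.72 percentage points. It ran from −7.38 to −3.91 with 1 library left out. For the genes chosen in noPRP replicate 1 alone it was −5.47, and for those chosen in noPRP replicate 2 alone −8.67. Both of these values use the mean of the noPRP libraries, which includes the library that chose the genes. Ranking per kilobase gave a median exon length of 1208 bases and 7 exon starts. In each case the cause was not tested.

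The labels do not pair the replicate numbers, so the replicate block was fitted only as an alternative. With it, 57 of all tested genes and 0 of the abundant genes passed. Same-numbered libraries had deviations from their group means with a correlation of −0.63. With the crossed replicate block, added after seeing the data, 3588 of 12707 tested genes and 39 of the 101 abundant genes passed.

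Over all 14 fits, 32 of the 101 genes had both directions, 31 of them with overlapping groups and 1, on chromosome 3 at 33117791, with groups that did not overlap (−1.36 to 0.025). Among the genes at the highest levels, at the extremes and nearest 0, directions turned for 9. With library totals alone, log2 changes were −0.19 for the chromosome 17 gene at 28566492, −0.22 for the chromosome 14 gene at 42965454, −0.20 for the GL018878 gene, −0.18 for the chromosome 12 gene at 60379957, −0.31 for the GL018751 gene and −0.20 for the GL018699 gene at 2138850. The GL018751 gene was at −0.055 with upper-quartile factors and −0.018 without the filter. The GL018699 gene was at −0.018 with DESeq2's size factors, −0.000194 with upper-quartile factors, −0.0092 with the stricter filter, −0.039 in limma-voom, −0.018 in DESeq2, −0.039 with the replicate block and −0.039 with the crossed one.

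With 1 library left out, log2 changes ran from −0.066 to 0.18 for the chromosome 17 gene at 28566492, −0.33 to 0.51 for the chromosome 14 gene, −0.29 to 0.53 for the GL018878 gene, −0.39 to 0.65 for the chromosome 12 gene and −1.45 to 1.59 for the GL018751 gene. They ran from −0.53 to 0.45 for the GL018699 gene, −1.75 to 0.96 for the chromosome 3 gene at 71974430, −0.25 to 1.46 for the chromosome 13 gene at 141107076, and −1.17 to 0.051 for the chromosome 7 gene at 156703390.

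Over all 33 genes of these kinds, alternatives turned 32 values, gave 55 that newly passed the threshold and left 342 on the same side with the same direction. These numbers include the crossed replicate block, which was added after seeing the data and gave part of the 55. At 20100 counts or more, counting error at 1000 CPM is small beside the difference between libraries, and each group had only 2 libraries. What limits precision was not tested.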
